A study of Mus musculus with 15 samples.

Results

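The Fos, Jun, Egr, Atf and Ier genes examined here were Fos, Fosb, Fosl1, Fosl2, Jun, Junb, Jund, Egr1, Atf3 and Ier2, chosen by name. These 10 genes were followed through 15 RNA-Seq libraries of mouse pancreas, in count tables that list 15175 genes (MC experiment) or 49585 genes (HC experiment, and the KC and KMC experiment). All 10 were listed in each table and all 10 passed the filter on low counts in each comparison. Each group was compared with its own control.

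Fos and Jun proteins pair through a leucine zipper to form AP-1, a transcription factor that binds TGACTCA and related sequences. Growth factor, stress and cytokine signals reach these genes through the ERK, JNK and p38 kinases, and Fos, Junb, Egr1, Atf3 and Ier2 are among the first genes transcribed after such a signal, without new protein synthesis. Jund differs from them in that it is transcribed steadily in most resting cells. HPK1, the product of Map4k1, is a kinase upstream of JNK, and in the exocrine pancreas AP-1 and Egr1 are known as early responders to cerulein, a peptide that overstimulates acinar cells.

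All mice were C57BL/6, and the labels state that each library held RNA pooled from 3 mice. MC libraries (M46 transgenic, age 2 months, n = 3) came from mice carrying M46, the kinase-dead form of HPK1, behind a stop cassette that Cre removes, and their controls (labelled B control, age 2 months, n = 3) carried the Bac-cre driver alone. HC libraries (HPK1/B, age 4 months, n = 3) came from mice with the same design of transgene for HPK1, and their controls were labelled WT (age 4 months, n = 2). KC libraries (age 15 months, n = 2) and KMC libraries (age 9 months, n = 2) shared the Bac-cre driver and the rest of their genotype, and KMC mice also carried M46. Bac-cre is a tamoxifen-regulated Cre under the acinar-specific elastase I promoter, so that transgenes are switched on in acinar cells only, while the tissue sequenced holds other cells too. According to the study, HC, MC and littermate control mice all received cerulein, and their pancreata were taken the day after. The labels call the tissue of KC and KMC pancreas, and the study speaks of samples of pancreatic ductal adenocarcinoma (PDAC). Because a library is a pool, p-values measure the spread between pools.

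Libraries held 29.8 to 38.7 M counts (M, mega). The upper limit for a gene with no count, set at 3 counts, lay at 0.0774 to 0.101 CPM (counts per M counts) by library totals alone. Most CPM values below also carry a scaling factor per library, so this limit is not on their scale. With that factor a single count stood for 0.0681 CPM in KC 1. Map4k1, the transgene's own gene, was higher in MC than in its control (log2 fold change 1.13 ± 0.24, adjusted p = 0.110 by edgeR), lower in the libraries labelled HC than in theirs (-0.99 ± 0.25, adjusted p = 0.145), which goes against that label, and higher in KMC than in KC (2.99 ± 0.60, adjusted p = 0.0796). None of the 3 was called. The leukocyte gene Ptprc had log2 fold changes of 1.66, -0.95 and 2.78 in the same comparisons, the same signs as Map4k1. Whether Map4k1 counts came from the transgene or from leukocytes was not tested, so they do not settle the label of any group. Acinar enzyme genes took 37.5 to 56.0% of counts in the MC experiment, 5.77 to 9.04% in the HC experiment, 60.3 to 69.2% in KC, and 49.3 and 24.7% in KMC 1 and KMC 2. Xist and Ddx3y marked library HC 3 (0.76 and 48.4 CPM) as male and the other 4 libraries of its experiment as female. They marked both KC libraries as male (Ddx3y 10.7 and 17.3 CPM) and both KMC libraries as female (Xist 406 and 306 CPM). Sex and age can therefore not be told apart from genotype in KMC against KC. Neither gene was listed in the counts of the MC experiment, so sex was not read there.

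Promoter sequences are shown for Fos, Jun and Junb because these genes varied together between libraries, as described further on, and because the RefSeq start used lies at or near the start in the GENCODE annotation. Each is the 250 bases before the transcription start (RefSeq, GRCm38.p6), written 5′ to 3′ on the gene's strand, with capitals for TGACG, the core of the cyclic AMP response element (CRE), or for TGACNTCA, a one-letter relative of the CRE. They lie at chr12:85473640-85473889 (Fos, plus strand), chr4:95052223-95052472 (Jun, minus strand) and chr8:84978749-84978998 (Junb, minus strand).
Fos: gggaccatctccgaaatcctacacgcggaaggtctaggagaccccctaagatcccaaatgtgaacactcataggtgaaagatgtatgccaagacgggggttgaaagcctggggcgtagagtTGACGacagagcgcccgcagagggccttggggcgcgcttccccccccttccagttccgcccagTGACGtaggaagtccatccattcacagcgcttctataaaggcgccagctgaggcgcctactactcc
Jun: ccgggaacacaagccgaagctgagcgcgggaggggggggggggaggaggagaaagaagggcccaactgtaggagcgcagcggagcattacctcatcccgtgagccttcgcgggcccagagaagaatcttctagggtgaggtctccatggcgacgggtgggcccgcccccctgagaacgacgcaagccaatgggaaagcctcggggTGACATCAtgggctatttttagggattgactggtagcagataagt
Junb: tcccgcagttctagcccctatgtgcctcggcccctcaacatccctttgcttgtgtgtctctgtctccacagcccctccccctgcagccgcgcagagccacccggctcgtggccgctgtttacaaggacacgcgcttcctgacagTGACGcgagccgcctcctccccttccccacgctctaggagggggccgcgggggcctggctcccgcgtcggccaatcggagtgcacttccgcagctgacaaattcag
In Fos, TGACG began 129 and 66 bases before the start, in Jun TGACATCA began 45 bases before it, and in Junb TGACG began 106 bases before it. RefSeq promoters were searched for 7 of the 10 genes (Fos, Fosb, Fosl2, Jun, Junb, Jund and Atf3). Sites in the promoters of the other genes, or beyond the 250 bases before a start, were not tested. A count of 0 below therefore holds only for these 7 and for this window. Searched on both strands, TGACG was found in 4 of these 7 (Fos, Fosb, Junb and Atf3, whose entry is doubtful as described next) and in 17.8% of all 32851 promoters, and TGACNTCA in 1 of 7 and in 7.49%. The complete CRE (TGACGTCA, which also matches both motifs above) was found in 0 of 7 and in 1.55% of all promoters, the AP-1 site TGACTCA in 0 of 7 and in 4.46%, and the CArG box of serum response factor in 0 of 7 and in 1.47%. The entries for Jund, Fosl2 and Atf3 start 1210, 671 and 34706 bases away from the start of the gene in GENCODE, so they are not shown.

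**Figure D1:**
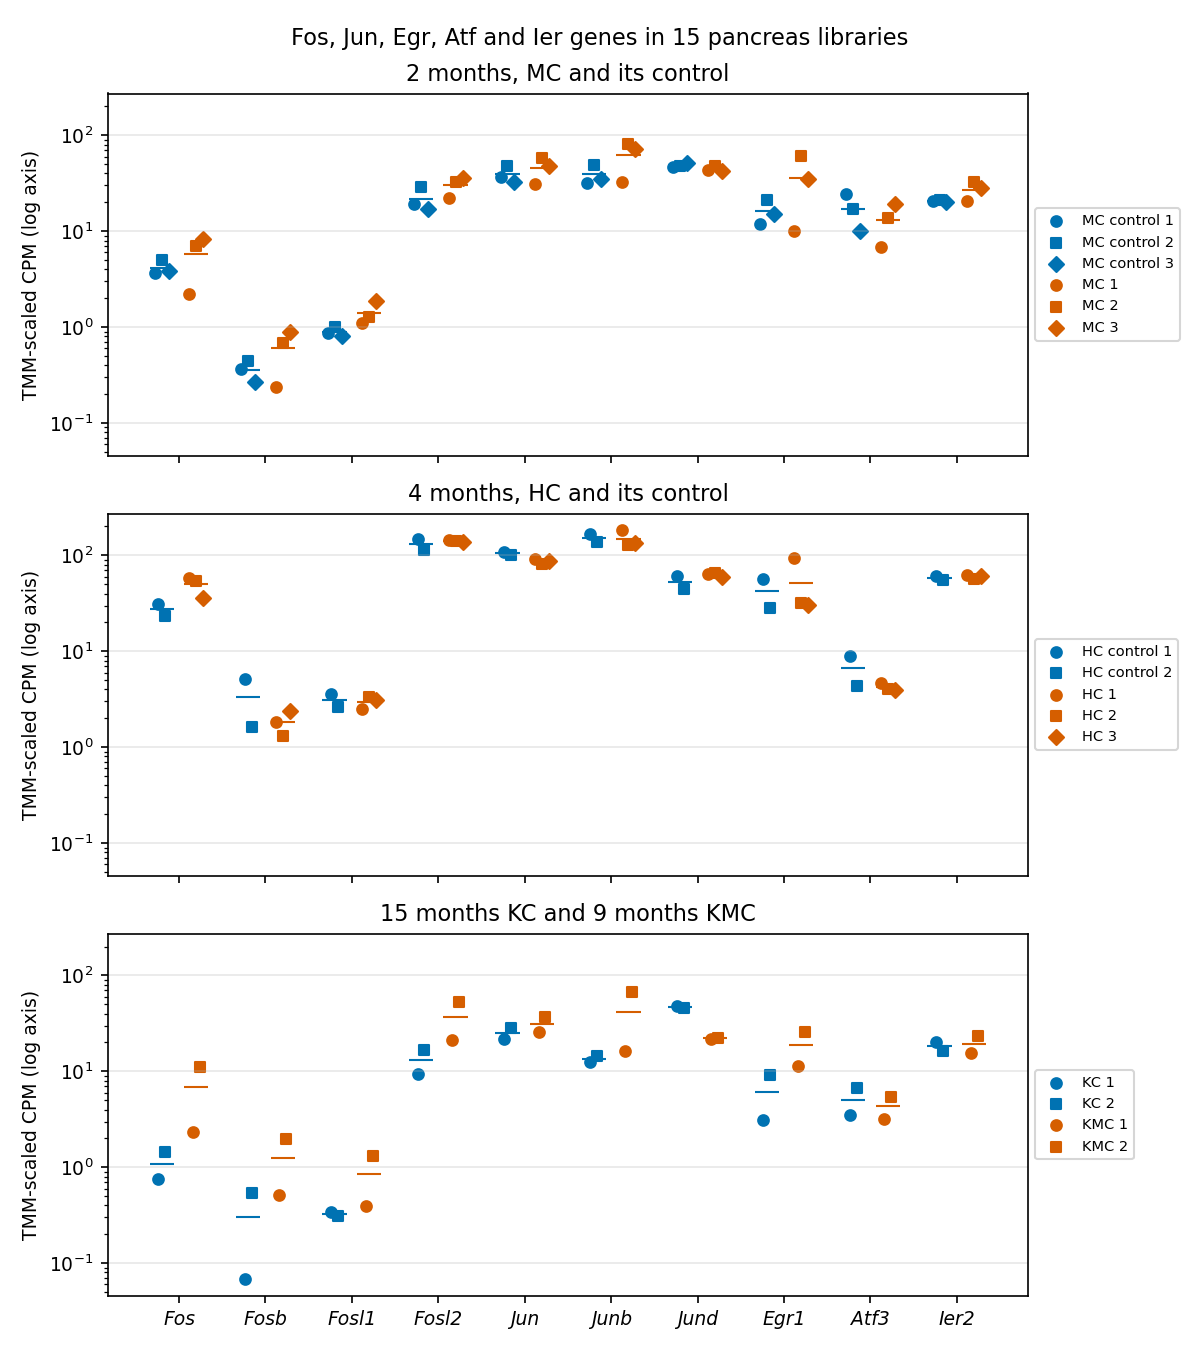
TMM-scaled CPM (log axis) of the 10 genes in each library, with 1 panel per experiment, controls in blue, transgenic or KMC libraries in orange, marker shapes for library numbers and lines for group means. MC 1 lies among or below its controls for most genes, KMC 2 lies above KMC 1 for all 10 genes, and both KMC values of Jund lie below both KC values.

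Levels between genes were compared per kilobase of exon, as TMM-scaled CPM per kb. By group mean, Jund and Junb held the first 2 places in MC, in its control and in KMC. In KMC this order held for the mean only. Junb was at 18.2 CPM per kb (7.06 to 29.4), Jund at 13.2 (13.15 to 13.27) and Ier2 at 12.7 (10.3 to 15.2), ranges that overlap. In the MC control, Jund was at 29.4 CPM per kb (28.2 to 31.1) and Junb at 17.0 (13.99 to 21.5), ranges that do not overlap. In MC, Junb at 27.0 (14.2 to 35.6) and Jund at 26.8 (25.6 to 28.6) did not differ beyond their spread. In KC, Jund stood first at 28.4 CPM per kb (27.7 to 29.0), with Ier2 next at 12.03 (10.7 to 13.4). In the HC experiment Junb came first, at 64.7 (55.4 to 79.8) in the libraries labelled HC and 66.4 (60.3 to 72.6) in their controls. Fos was the 8th of the 10 genes in KC (0.464 CPM per kb), in the MC control (1.77) and in MC (2.47), and the 5th in HC (21.2). Fosb was last in all 6 groups, at 0.0488 to 0.538 CPM per kb as a group mean. The tables came from separate experiments, so levels between them were not tested.

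In MC against its control, which asks what kinase-dead HPK1 in acinar cells changes, 8 of the 10 genes had a higher fitted level in MC, with a median log2 fold change of 0.48 (-0.02 over all 13902 genes tested), and none passed the test. MC 2 and MC 3 carried these differences, while MC 1 lay within or below the range of the controls for every gene but Fosl1. By edgeR with a threshold of 0.05 on the adjusted p and 1 on the absolute log2 fold change, 0 of the 10 genes and 0% of all genes were called. DESeq2 also called 0 of the 10, and 3.19% of all genes. At an unadjusted p under 0.05, 1 of the 10 was higher (9.2% of all genes) and 0 were lower (5.46%). Every MC library lay above every control for 1 gene (10.9% of all genes) and below for 0 (9.89%).

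Among the Fos family in MC, Fos, the best known immediate early gene, had 3.70, 5.002 and 3.82 CPM in the 3 controls and 2.23, 6.93 and 8.27 CPM in MC 1, MC 2 and MC 3. MC 1 was thus the lowest of the 6 libraries and the other two MC libraries the highest. The log2 fold change of Fos was 0.48 ± 0.44 (SE), with an adjusted p of 0.591 by edgeR. Fosl1 (Fra-1), a partner that is itself induced by ERK and AP-1, had 0.86, 1.01 and 0.81 CPM in controls and 1.12, 1.27 and 1.85 CPM in MC. It was the gene whose groups did not overlap, with a log2 fold change of 0.66 ± 0.31 and an adjusted p of 0.366 by edgeR, on 18 to 75 counts a library. Fosl2 (Fra-2), the most abundant Fos relative in CPM, had 19.3, 29.1 and 17.1 CPM in controls and 22.2, 32.8 and 36.0 CPM in MC. Fosb was present at 0.24 to 0.89 CPM, or 6 to 36 counts, and its groups overlapped.

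Of the Jun family in MC, Junb, which pairs with Fos proteins, had 32.2, 49.6 and 35.4 CPM in controls and 32.6, 81.9 and 71.6 CPM in MC. MC 2 and MC 3 exceeded every control while MC 1 was near the lowest of them, and the log2 fold change was 0.67 ± 0.33 (adjusted p = 0.382 by edgeR). Jun had 36.5, 48.1 and 32.8 CPM against 30.9, 58.5 and 47.6 CPM. Jund varied least, with 47.0, 48.3 and 51.9 CPM in controls and 43.8, 47.8 and 42.7 CPM in MC, a log2 fold change of -0.13 ± 0.10 that became 0.20 when libraries were scaled by their totals alone.

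Of the other 3 genes in MC, Egr1, a zinc finger factor induced through ERK and serum response factor, had 11.998, 21.1 and 15.1 CPM in controls and 10.1, 61.5 and 34.7 CPM in MC. Its spread within MC was wider than the difference between the groups, and the log2 fold change of 1.14 ± 0.56 had an adjusted p of 0.379 by edgeR. Ier2, a small nuclear protein induced by serum, had 20.8, 21.05 and 19.9 CPM in controls and 20.8, 32.4 and 28.3 CPM in MC. It was the gene with an unadjusted p under 0.05, at a log2 fold change of 0.40 ± 0.17 and an adjusted p of 0.338 by edgeR. Atf3, a stress-induced repressor, had 24.3, 17.2 and 10.1 CPM in controls and 6.83, 13.6 and 19.0 CPM in MC.

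When MC 1 was left out, 7 of the 10 genes had an unadjusted p under 0.05 and were higher in MC, as were 10.1% of all genes in that fit, although 0 of the 10 were called. Egr1 then had a log2 fold change of 1.59 (adjusted p = 0.0899 by edgeR), Junb 0.99 (adjusted p = 0.105) and Fos 0.87 (adjusted p = 0.160). Without MC 1, 1.21% of all genes were called. MC 1 lay below its group mean for all 10 genes, so leaving it out raises their fitted differences by construction. The count of 7 was 2 without MC_control 2, where 17.6% of all genes were higher at that p. It was 0 without MC_control 1, MC_control 3, MC 2 or MC 3. MC 1 also had the largest acinar share of the 3 MC libraries (46.4%, against 37.5 and 38.2%) and the lowest summed level of the 10 fibroblast markers (2226 CPM, against 2951 and 3137 CPM). The 13 leukocyte markers listed in that table summed to 99.8 to 264 CPM in controls and 262 to 375 CPM in MC, with 0 of them at a count of 0 in any library. Whether tissue composition had a part in the levels of the 10 genes was not tested, and in bulk tissue more cells of a type and more RNA per cell cannot be told apart.

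The libraries labelled HC were compared with their controls to see what HPK1 adds together with the Bac-cre driver. By the labels (HPK1/B against WT) the controls lack that driver, so its effect cannot be told apart from that of HPK1. The groups were alike for most of the 10 genes, with 5 log2 fold changes above 0 and a median of 0.0078 (-0.0011 over all 18407 genes tested). Fos was higher in all 3 libraries labelled HC than in both controls, and Jun was lower in all 3, each by less than a log2 fold change of 1. By edgeR 0 of the 10 genes were called (0.565% of all genes), and by DESeq2 also 0 (2.78%). An unadjusted p under 0.05 was found for 1 higher gene (8.39% of all genes) and 1 lower gene (7.47%). The groups did not overlap for 1 gene above (17.5%) and 1 gene below the controls (16.1%).

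Fos had 31.4 and 23.6 CPM in the WT controls and 58.6, 54.6 and 36.1 CPM in HC 1, HC 2 and HC 3. The log2 fold change was 0.86 ± 0.24, with an adjusted p of 0.175 by edgeR and 0.0234 by DESeq2. HC 3, the male library, had the lowest value of the 3, and without it the log2 fold change was 1.03 (adjusted p = 0.115 by edgeR). Jun had 109 and 102 CPM in controls and 92.3, 81.1 and 87.0 CPM in the libraries labelled HC. Its log2 fold change was -0.28 ± 0.10, with an adjusted p of 0.254 by edgeR.

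Fosl2, at 148 and 114 CPM in controls, had 146, 141 and 137 CPM in the libraries labelled HC, and Ier2, at 60.6 and 55.1 CPM in controls, had 62.5, 56.8 and 60.8 CPM. The 3 libraries labelled HC lay close together for both genes. Junb had 167 and 139 CPM in controls and 184, 128 and 135 CPM in the libraries labelled HC, and Jund had 61.3 and 45.0 CPM against 64.2, 66.2 and 59.9 CPM. Egr1 stood out for its spread, since HC 1 had 92.8 CPM and HC 2 and HC 3 had 31.8 and 30.6 CPM, with 57.0 and 28.1 CPM in controls. Atf3 had 9.01 and 4.33 CPM in controls and 4.67, 4.04 and 3.90 CPM, and Fosb 5.11 and 1.61 CPM against 1.83, 1.303 and 2.38 CPM. For both genes the first control was the highest library and the groups overlapped.

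Fosl1 had 3.59 and 2.64 CPM in controls and 2.51, 3.37 and 3.08 CPM in the libraries labelled HC. The fitted differences of Fosb, Fosl1, Fosl2, Junb, Egr1 and Ier2 each changed sign when 1 of the 5 libraries was left out. The 10 markers of stomach and gut summed to 8353 to 8409 CPM in the libraries labelled HC and 1698 to 3270 CPM in their controls, and the 15 leukocyte markers to 334 to 478 CPM and 632 to 905 CPM. Whether either had a part in the values of Fos and Jun was not tested.

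**Figure D2:**
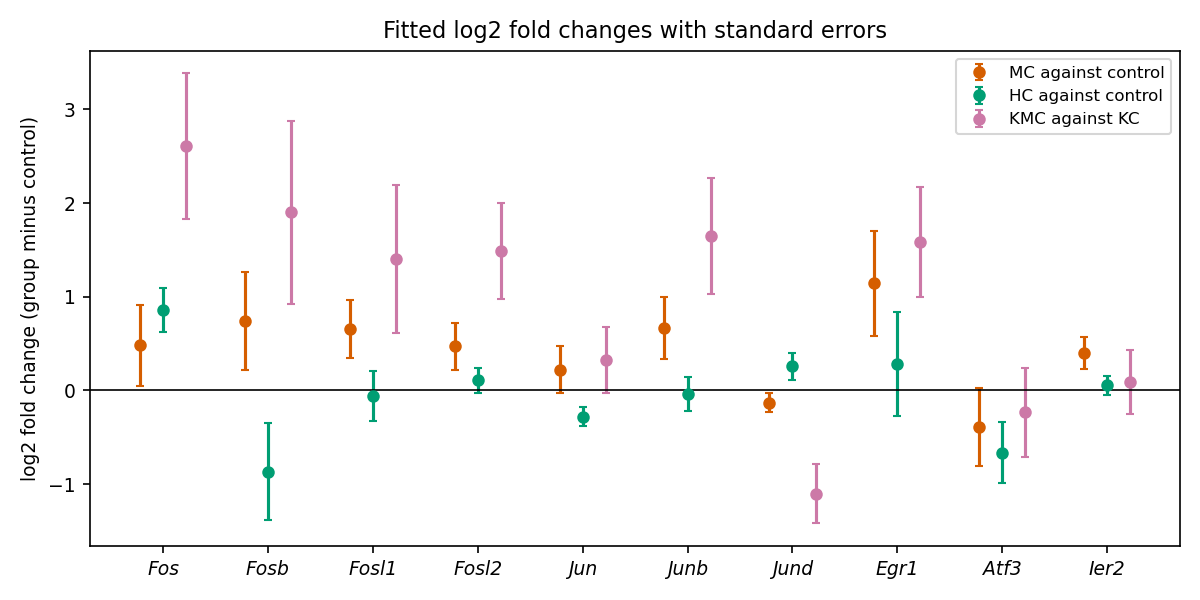
Log2 fold changes (points) with standard errors (bars) of the 10 genes in MC (orange) and in the libraries labelled HC (green) against their controls and in KMC against KC (purple), fitted with edgeR. The KMC points of Fos (2.61) and Jund (-1.10) lie farthest from 0 in either direction, and the bars of KMC are the widest for most genes.

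KMC against KC asks what kinase-dead HPK1 adds to the genotype of KC. Fos, Fosl1, Fosl2, Junb and Egr1 were higher in both KMC libraries than in both KC libraries and Jund was lower in both, but none of the 10 genes was called by edgeR (0.0191% of all 15733 genes were). DESeq2 called 4, Fos, Fosl2, Junb and Egr1, all higher, where it called 13.8% of all genes. An unadjusted p under 0.05 was found for 4 higher genes (16.1% of all genes) and 1 lower gene (9.48%). Of all genes, 34.4% lay above and 30.9% below in both KMC libraries, and of the 10 genes 5 and 1 did. The median log2 fold change of the 10 genes was 1.45, and 0.03 over all genes.

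Fos had 0.75 and 1.43 CPM in KC 1 and KC 2 and 2.36 and 11.2 CPM in KMC 1 and KMC 2, on 11, 37, 96 and 942 counts. KMC 2 held most of this difference. The log2 fold change was 2.61 ± 0.78 (adjusted p = 0.120 by edgeR and 0.00417 by DESeq2). Without KMC 2 it was 1.101, with an adjusted p of 0.731 by edgeR.

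All 3 other Fos relatives were highest in KMC 2. Fosl2 had 9.46 and 16.8 CPM in KC and 21.2 and 52.9 CPM in KMC, with a log2 fold change of 1.49 ± 0.51 (adjusted p = 0.144 by edgeR and 0.0374 by DESeq2). Fosl1 had 0.34 and 0.31 CPM in KC and 0.39 and 1.299 CPM in KMC, so that KMC 1 lay just above KC. Fosb had 0.07 and 0.54 CPM in KC and 0.52 and 1.95 CPM in KMC, with a single count in KC 1 and overlapping groups.

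Junb and Jund, the inducible and the steady member of the Jun family, had fitted differences of opposite sign. Junb had 12.4 and 14.4 CPM in KC and 16.2 and 67.7 CPM in KMC, with a log2 fold change of 1.65 ± 0.62 (adjusted p = 0.162 by edgeR and 0.0357 by DESeq2). Without KMC 2 this log2 fold change was 0.30. Jund had 48.4 and 46.2 CPM in KC and 21.9 and 22.1 CPM in KMC, with a log2 fold change of -1.10 ± 0.32 (adjusted p = 0.113 by edgeR and 0.0502 by DESeq2), a direction that turned to 0.36 when libraries were scaled by their totals alone. Jun, between them, had 21.6 and 28.6 CPM in KC and 25.7 and 37.1 CPM in KMC, and its groups overlapped.

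Egr1 had 3.13 and 9.17 CPM in KC and 11.5 and 25.9 CPM in KMC, with a log2 fold change of 1.59 ± 0.59 (adjusted p = 0.159 by edgeR and 0.0455 by DESeq2). Atf3 had 3.47 and 6.66 CPM in KC and 3.22 and 5.42 CPM in KMC, and Ier2 had 20.4 and 16.3 CPM in KC and 15.6 and 23.2 CPM in KMC. The groups of both genes overlapped. The log2 fold changes nearest to 0 were those of Ier2 (0.09), Atf3 (-0.23) and Jun (0.32).

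Scaling mattered more in KMC against KC than elsewhere. TMM factors of KC were 0.486 and 0.762, and those of KMC 1.24 and 2.1699, in the inverse order of the acinar shares, whereas those of the HC experiment ran from 0.990 to 1.03. In the MC experiment they ran from 0.706 to 1.25, and the median log2 fold change over all genes moved from -0.02 to 0.29 with library totals alone. In KMC against KC, with library totals alone, that median was 1.47, 7 of the 10 genes were called, and 30% of all genes were called, 4694 of 4714 of them higher. On that scale Jund had 23.5 and 35.2 CPM in KC and 27.3 and 48.0 CPM in KMC, and Fos had 0.364, 1.09, 2.93 and 24.3 CPM in KC 1, KC 2, KMC 1 and KMC 2. The 15 leukocyte markers summed to 40.9 and 69.7 CPM in KC, with 2 and 1 of them at 0, and to 227 and 473 CPM in KMC, with 0 at 0. Fibroblast markers summed to 508 and 970 CPM in KC and to 2266 and 6544 CPM in KMC, the same order as Fos, Fosl2 and Junb. Their part in the result was not tested.

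**Figure D3:**
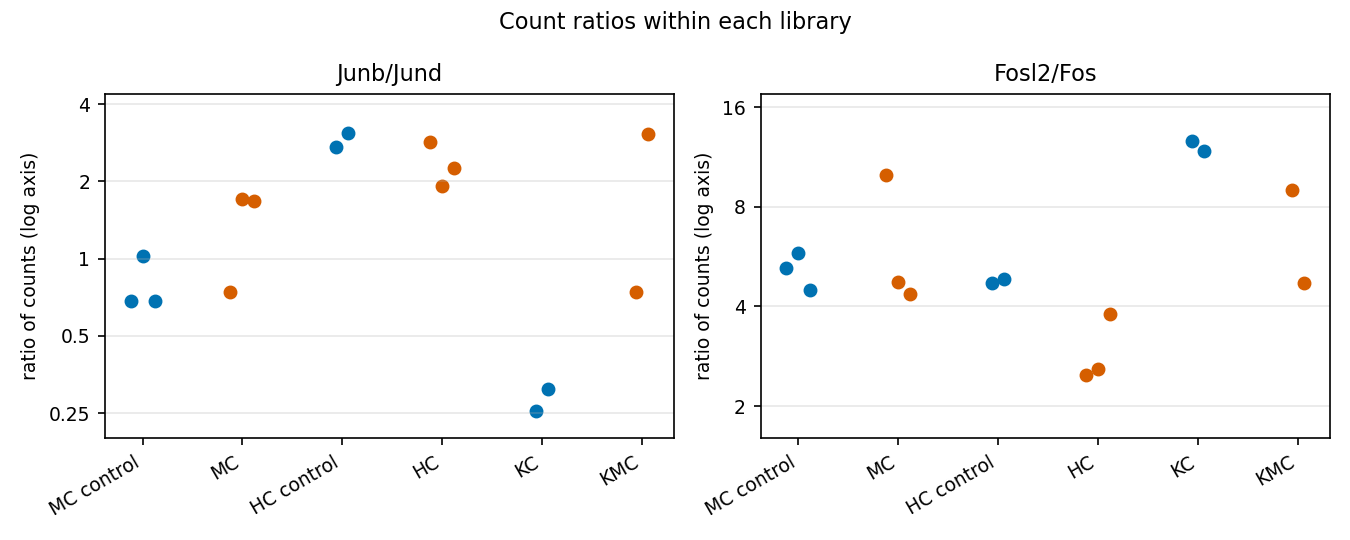
Ratio of counts of Junb to Jund (left) and of Fosl2 to Fos (right) within each library (log axes), by group, with controls and KC in blue and the others in orange. Both KMC points of Junb to Jund (0.740 and 3.06) lie above both KC points (0.256 and 0.311), and 2 of the 3 MC points lie above all 3 controls.

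A ratio of counts between genes of a library needs no scaling factor, and the ratio of Junb to Jund was examined after its values had been seen. It was 0.256 and 0.311 in KC and 0.740 and 3.06 in KMC. Both KMC libraries were above both KC libraries, with a difference of the mean log2 ratio of 2.42 (2.28 to 3.44 when a library other than KMC 2 was left out, and 1.39 without KMC 2). The exact two-sided permutation test gave p = 0.333, the smallest value that 2 against 2 allows. In MC the ratio was 0.745, 1.71 and 1.68, against 0.685, 1.03 and 0.682 in its controls, a difference of 0.72 in mean log2 ratio (exact permutation p = 0.2, where 0.1 is the smallest possible). In the libraries labelled HC it was 2.86, 1.93 and 2.26, and in their controls 2.73 and 3.08 (difference -0.32, exact permutation p = 0.4).

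The ratio of Fosl2 to Fos was 12.6 and 11.8 in KC and 8.99 and 4.71 in KMC, and per kilobase Fos made up 21.6 and 23.5% of the summed Fos family in KC and 28.9 and 42.7% in KMC. It was 4.72 and 4.85 in the WT controls and 2.49, 2.59 and 3.79 in the libraries labelled HC, again with no overlap. In the MC experiment it was 4.35 to 9.95 in MC and 4.48 to 5.82 in the controls, and the groups overlapped. The 3 differences in mean log2 ratio had exact two-sided permutation p of 0.333, 0.2 and 0.9. In the first 2 the groups did not overlap, so with so few libraries these p could not have been smaller. They therefore do not decide whether the ratio differed. Per kilobase, Jund made up 70.5 and 64.6% of the summed Jun family in KC and 46.5 and 24.4% in KMC.

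The effects of M46 and of HPK1, each relative to its own control, were compared as a difference in 1 fit over both experiments. For none of the 10 genes was this difference called by edgeR (2.18% of all 14884 genes were called) or by DESeq2 (6.94%). At an unadjusted p under 0.05 there were also 0 of the 10, where 3090 of all 14884 genes had such a p. The M46 effect was the higher one for 8 of 10 genes (47.0% of all genes), with a median difference of 0.43 (-0.03 over all genes). Both values rest on the label of HC, in whose libraries Map4k1 and the leukocyte gene Ptprc were both lower. With the sign of the HC effect turned, that is, with the MC and HC effects added, 7 of the 10 values were above 0, with a median of 0.52 (no test). Jund had the lowest adjusted p, at a difference of -0.40 ± 0.18 (adjusted p = 0.242 by edgeR), and Fosb the largest difference, 1.603 ± 0.78 (adjusted p = 0.271). The experiments differed in age and in the label of the controls, which cannot be told apart from the transgene.

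**Figure D4:**
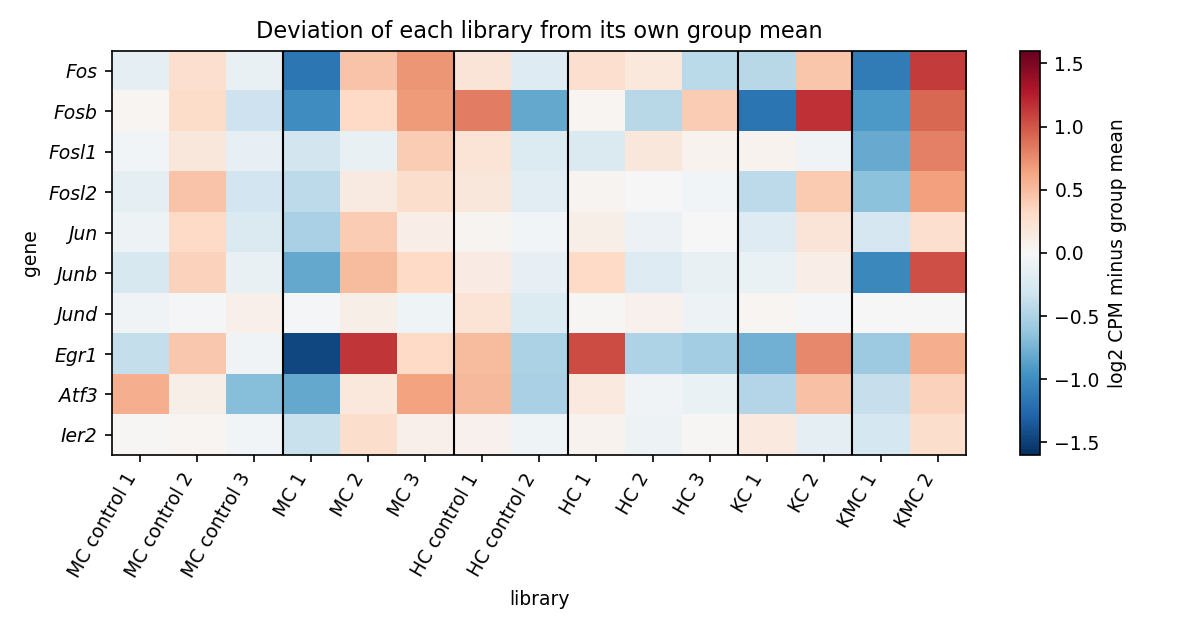
Log2 CPM of each of the 10 genes (rows) in each library (columns) minus the mean of its group, in color, with black lines between groups. MC 1 and KMC 1 are below their group means for all 10 genes, and Jund is close to 0 in most columns.

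Within some groups, libraries differed from their group mean in the same direction for nearly all of the 10 genes. MC 1 was below its group mean for 10 of 10 (median deviation -0.67 in log2 CPM), and MC 2 and MC 3 were above it for 9 each (0.30 and 0.32). KMC 2 was above KMC 1 for 10 of 10 and control HC_control 1 above HC_control 2 for 10 of 10. Other libraries were more mixed, with HC 2 and HC 3 above their group mean for 4 each, and KC 1 and KC 2 for 3 and 7. Over the 15 libraries, deviations of the 45 pairs of these genes had positive correlations (Pearson r) throughout, with a median of 0.705 and a range of 0.088 to 0.932. These points share their library's depth and scaling factor, and groups of 2 give deviations that mirror each other.

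The genes whose deviations were most like those of Fos, among 13654 genes tested in all 3 comparisons, were Kbtbd2 (r = 0.970), Actn1, an actin cross-linker (0.937), Sept7, a septin (0.935), Junb (0.932) and Onecut2, a transcription factor (0.932). Over all genes the median r with Fos was 0.036. Fosl2 ranked 26th (0.901), Jun 158th (0.830) and Egr1 246th (0.803). Fosb (0.779), Fosl1 (0.775), Atf3 (0.725) and Ier2 (0.720) came next, and Jund was 5715th, with r = 0.174.

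Other genes of the pathway were taken from 5 lists, and their counts stand against shares over all genes of 0, 0.565 and 0.0191% called by edgeR in MC, in the libraries labelled HC and in KMC. By DESeq2 these shares were 3.19, 2.78 and 13.8%, and an unadjusted p under 0.05 was found for 9.2, 8.39 and 16.1% as higher and 5.46, 7.47 and 9.48% as lower genes. A log2 fold change above 0 was found for 46.9, 49.8 and 51.3% of all genes. Of 36 other immediate early genes, such as Klf, Ier, Dusp and Nr4a genes, 25 of 34 tested were higher in MC (median log2 fold change 0.22), 10 of 35 in the libraries labelled HC (-0.16) and 28 of 35 in KMC (0.78). By edgeR 0, 1 and 0 of them were called, and by DESeq2 1, 1 and 9, all higher, while an unadjusted p under 0.05 was found for 4, 2 and 13 higher and 2, 3 and 2 lower genes. The called gene was Klf4, a zinc finger factor, with 133 and 131 CPM in WT controls and 244, 334 and 309 CPM in HC 1, HC 2 and HC 3. Its log2 fold change was 1.16 ± 0.16 (adjusted p = 0.0449 by edgeR and 2.4e-08 by DESeq2). By edgeR the adjusted p was 0.00973, 0.106 and 0.115 without HC 1, HC 2 or HC 3. The call was also lost without either control, where 1 control was left. Klf2, a relative of Klf4, was higher in all 3 MC libraries (22.6, 26.4 and 21.8 CPM) than in the controls (13.1, 16.02 and 13.3 CPM), at 0.74 ± 0.14 (adjusted p = 0.0890 by edgeR). Ier5l had a log2 fold change of 2.31 ± 0.57 in KMC (adjusted p = 0.0946 by edgeR).

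The 21 other bZIP partners include Batf, Maf and Cebp genes. Their median log2 fold change was 0.06 in MC (13 above 0), -0.19 in the libraries labelled HC (8 above 0) and 0.49 in KMC (13 above 0). Called by edgeR were 0, although an unadjusted p under 0.05 was found for 2, 0 and 7 higher and 1, 4 and 3 lower genes, and DESeq2 called 1 higher gene in MC and 3 higher and 2 lower genes in KMC. Maf, a large Maf factor, had 10.2 and 15.4 CPM in KC and 42.8 and 83.7 CPM in KMC, a log2 fold change of 2.30 ± 0.45 (adjusted p = 0.0796 by edgeR). In the HC experiment Maf had 124 and 120 CPM in controls and 95.3, 86.5 and 99.5 CPM in the libraries labelled HC (-0.38 ± 0.10, adjusted p = 0.163). Batf2, an interferon-induced partner of Jun, had a log2 fold change of 1.58 ± 0.37 in MC (adjusted p = 0.135 by edgeR).

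The 20 upstream kinases and factors had median log2 fold changes of -0.02, -0.04 and 0.12 in MC, in the libraries labelled HC and in KMC, with 8 of 19, 8 of 20 and 13 of 20 above 0. Called by edgeR were 0, with an unadjusted p under 0.05 for 2, 3 and 3 higher and 0, 1 and 0 lower genes. DESeq2 called 1 of them in KMC, Mrtfa, a cofactor of serum response factor (1.32 ± 0.40, adjusted p = 0.120 by edgeR and 0.0429 by DESeq2). Mapk3, which encodes ERK1, had 250 and 220 CPM in WT controls and 334, 381 and 336 CPM in the libraries labelled HC (0.58 ± 0.13, adjusted p = 0.118 by edgeR). Map3k1, a kinase upstream of JNK, had 28.2, 33.2 and 35.5 CPM in the MC controls and 40.4, 42.5 and 43.3 CPM in MC (0.38 ± 0.12, adjusted p = 0.234 by edgeR).

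Of 22 genes known as AP-1 targets, 19 of 20 tested were higher in MC (median log2 fold change 0.37), 6 of 22 in the libraries labelled HC (-0.47) and 20 of 21 in KMC (1.85). Vim of this list is also among the fibroblast markers, and Krt19, Sox9 and Spp1 also mark duct cells. What part tissue composition had in these counts was not tested. The count called by edgeR was 0 in each, with an unadjusted p under 0.05 for 1, 6 and 15 higher and 1, 7 and 0 lower genes. DESeq2 called 0 in MC, 2 higher in the libraries labelled HC and 13 higher in KMC. Mmp3, a matrix metalloproteinase that stromal cells make, had 0.82 and 0.97 CPM in KC and a mean of 7.58 CPM in KMC (3.08 ± 0.57, adjusted p = 0.0796 by edgeR and 4.1e-05 by DESeq2). Ccnd1, which encodes cyclin D1, had 23.1, 44.0 and 21.5 CPM in the MC controls and 37.2, 62.5 and 54.96 CPM in MC (0.80 ± 0.31, adjusted p = 0.303 by edgeR). Hmox1, the heme oxygenase of the oxidative stress response, had 44.6 and 48.1 CPM in WT controls and 24.2, 26.2 and 28.5 CPM in the libraries labelled HC (-0.82 ± 0.11, adjusted p = 0.0449 by edgeR). Its adjusted p passed 0.05 and its log2 fold change did not reach 1.

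The 10 heat shock genes, listed as a different kind of stress response, had median log2 fold changes of -0.25, -0.11 and -0.25 in MC, in the libraries labelled HC and in KMC, with 1, 4 and 3 above 0. Called by either tool were 0, with an unadjusted p under 0.05 for 0 genes in MC and 1 lower gene in each of the others. Hspa8, a constitutive chaperone, was the lowest by p in the HC experiment, at -0.84 ± 0.16 (adjusted p = 0.0842 by edgeR). Hspb1, a small heat shock protein, had -1.004 ± 0.41 in KMC (adjusted p = 0.185), and Hspd1, a mitochondrial chaperone, -0.31 ± 0.17 in MC (adjusted p = 0.407). Hspb1 in KMC and Hspd1 in MC had log2 fold changes above 0 with library totals alone.

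**Figure D5:**
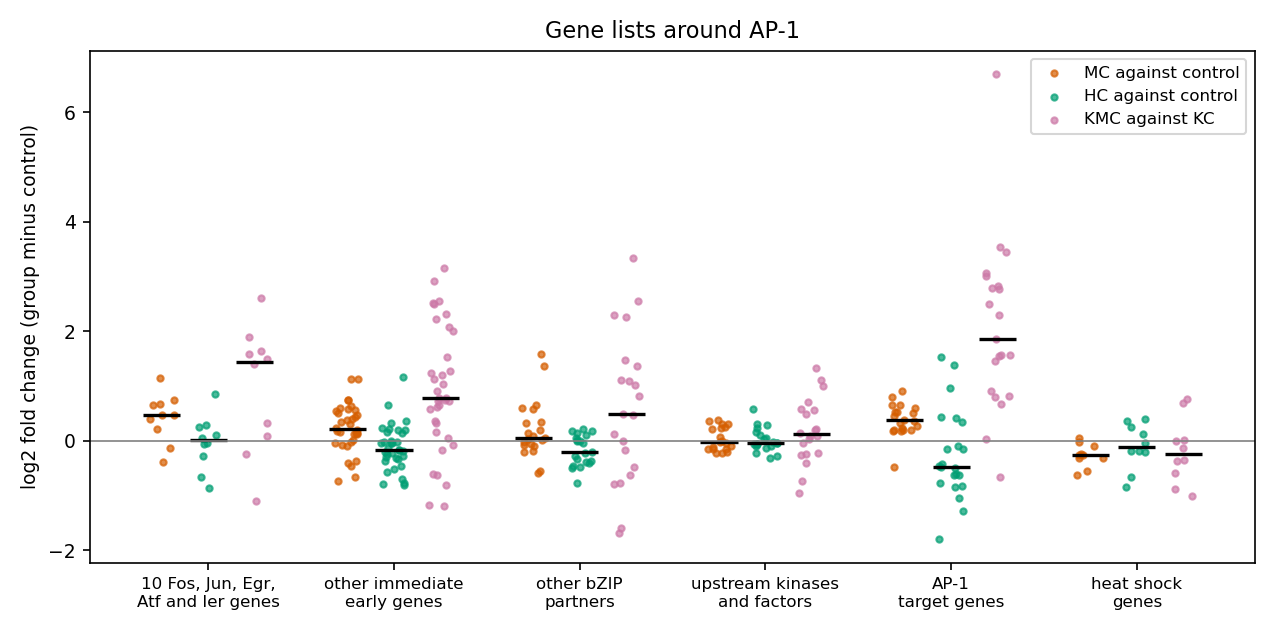
Log2 fold changes of single genes (points) and list medians (black lines) for the 10 genes and 5 lists around AP-1, in MC (orange), in the libraries labelled HC (green) and in KMC against KC (purple). The medians of the 10 genes and of the AP-1 targets are highest in KMC (1.45 and 1.85), and the topmost point, Mmp13, has a single count in KC.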

How the data were processed

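RNA-Seq counts were analysed in 15 libraries. Per the labels and the study's methods, reads were aligned to GRCm38 by STAR 2.6.1a, and the authors deposited raw counts per GENCODE gene, not normalized. The labels also name HTSeq 0.6.1 and bcl2fastq 2.17.14. Different library kits are named for the MC table and for the other tables, so the tables were not joined except for the difference of effects. One allele that KC and KMC share is not reported here. The MC table is shorter and came with columns of the authors' own comparison, which were not used.

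The 10 genes and all lists were chosen with earlier results of these data known. After filterByExpr and TMM scaling, each pair of groups was fitted with glmQLFit and tested with glmQLFTest (edgeR 4.0.16, R 4.3.3), with Benjamini-Hochberg adjustment over all genes. A call required both an adjusted p no higher than 0.05 and a log2 fold change of size 1 or more. The standard error was taken as |log2 fold change|/√F. DESeq2 1.42.0, other scalings and filters, leaving out each library, a replicate block and 1 fit over 2 tables were alternatives. The tests were checked on simulated counts. CPM values are TMM-scaled unless stated. Levels per kilobase used the union of exons in GENCODE M21. Likeness to Fos used log2 CPM (prior count 2). Ratios were tested with scipy, and none of them was among the planned tests. Ratios of Fos and of Egr1 to Jund were tested too and are not described above. The ratio of Junb to Jund and the sum of the MC and HC effects were added after seeing the data.

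From each list, the gene with the smallest unadjusted p in each comparison was named. Lists of acinar, leukocyte, fibroblast and stomach and gut markers described composition.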

Additional observations from a re-analysis of the deposited data

Results flagged for a closer look

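Among the genes named from the lists, Klf2 differed between the M46 and the HPK1 experiment. Its log2 fold change was 0.74 for M46 (MC) and -0.52 ± 0.24 for the libraries labelled HC (32.6 CPM on average, against 46.7 CPM in their controls), a difference of 1.25 ± 0.28 with an adjusted p of 0.0483 by edgeR over all genes. The direction of the second effect rests on the label of HC, in whose libraries Map4k1 and Ptprc were both lower. With the sign of that effect turned, the 2 effects add to 0.22 instead of differing by 1.25 (no test). Klf4 had the same adjusted p at a difference of -0.93 ± 0.21, below the size required for a call, and a sum of 1.40. Because Klf2 was picked for its small p in MC, the difference is not independent of that choice, and 14 genes named from the lists and the 10 Fos, Jun, Egr, Atf and Ier genes were looked at. The adjusted p was 0.00442 by DESeq2, and by edgeR 0.0507 with DESeq2 size factors and 0.101 with library totals alone. Leaving out 1 library gave differences of 0.79 (without HC_control 1, adjusted p = 0.185) to 1.598, and the call was lost in 9 of 11 of these fits.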

How the results depend on the processing

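No paired analysis was built into the tests, because replicate numbers did not mark shared animals or batches and deviations of same-numbered libraries had correlations of 0.067, 0.296 and -0.297 in the MC experiment, 0.189 and 0.170 in the HC experiment and 0.0514 in KMC against KC. With the replicate block, the count of the 10 genes called was 0 in MC, 1 in the HC experiment (Fos, with 1.84% of all genes called) and 5 in KMC against KC (Fos, Fosl2, Junb, Jund and Egr1), where 15.7% of all genes were called. Counts of the 10 genes were 0 under all other alternatives in MC, in the HC experiment and for the difference between them. In KMC against KC the count was 4 by DESeq2 (13.8% of all genes), 7 with library totals alone (30%, with a median of all genes of 1.47), 2 with totals without acinar genes (11.9%) and 3 in 1 fit over HC, HC_control, KMC and KC (17.3%), and 0 to 4 when a library was left out, with 4 only without KMC 1 (Fos, Fosl2, Junb and Egr1), where 13.6% of all genes were called. KMC 1 was then absent and KMC 2 was assumed to vary like the KC libraries.

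Among the 10 genes, signs turned in 1 of 139 values in MC, 11 of 140 in the HC experiment, 7 of 129 in KMC and 3 of 180 for the difference. In the HC experiment only 4 of the 10 genes never turned. With library totals alone, the log2 fold change was 0.36 for Jund, 1.22 for Atf3 and 0.58 for Hspb1 in KMC, 0.20 for Jund and 0.054 for Hspd1 in MC, and 0.026 for the difference in Fos. Atf3 in KMC was 0.36 with totals without acinar genes, and Junb in the HC experiment 0.0082 with the replicate block. Leaving out 1 library gave, in the HC experiment, -0.45 to 0.88 for Egr1, -1.47 to 0.19 for Fosb, -0.27 to 0.18 for Fosl1, -0.067 to 0.31 for Fosl2, -0.22 to 0.10 for Junb and -0.015 to 0.12 for Ier2, in KMC -0.65 to 0.31 for Atf3 and -0.21 to 0.33 for Ier2, and -0.35 to 0.70 for the difference in Atf3. The cause was not tested. Over all genes, 0 (MC), 104 (HC), 3 (KMC) and 325 genes (difference) were called, and 0 to 718, 0 to 482, 0 to 4714 and 0 to 1584 under the alternatives. Over the alternatives, values of the 10 genes kept direction and side of the threshold in 138 of 139 cases in MC, 128 of 140 in the HC experiment, 97 of 129 in KMC and 177 of 180 for the difference. Fosb and Fosl1, at 1 to 178 counts a library, had the least depth.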
